A study of Mus musculus with 3 samples.

Results

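Opn1sw, Opn1mw and Arr3, the genes of the 2 cone opsins and of cone arrestin in the mouse, were followed across every cluster and library of a single-cell RNA sequencing data set of the retina. The 3 genes were taken by name out of the 18545 genes of the data set, by a rule that uses no measured value but was set with earlier results of these data known. Their levels were set out by cluster and library, and the balance of the 2 opsins was then read cell by cell in Cluster 4, the cluster of cones.

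Cones are the photoreceptors of daylight vision, and each carries an opsin, a light-absorbing receptor, in the membranes of its outer segment. Opn1sw encodes the opsin tuned to short wavelengths and Opn1mw the opsin tuned to medium wavelengths. A mouse cone can make both opsins at once, in proportions that vary with its place along the dorsal to ventral axis of the retina, while a small class of cones makes the short-wavelength opsin alone. Arr3 encodes the arrestin that binds the light-activated, phosphorylated cone opsins and ends their signalling.

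The mice were 8 weeks old, had been raised in darkness throughout, and gave 1 retina each to a pool that was dissociated with papain and made into 1 droplet library per group. WT were C57BL/6J wildtype mice on base chow, with 2 females and 2 males in the pool. The rd10-vehicle pool came from 4 female rd10 mice on base chow, and the rd10-TMB pool from 4 female rd10 mice whose chow held tamsulosin, metoprolol and bromocriptine (TMB), which act on adrenergic and dopamine receptors. The rd10 strain has a point mutation in Pde6b, a subunit of the rod phosphodiesterase, after which rods die first and cones later. The mutation is carried in every cell of these mice and could not be checked from tag counts. The labels give 4 mice per pool, whereas the text of the study gives fewer for the rd10 groups, and the counts cannot settle which is right. With 1 library per group no test between groups was possible. Sex and genotype cannot be told apart between the rd10 libraries and the WT library as a whole.

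The libraries held 4478 to 5952 cells and 18882951 to 37002532 unique molecular identifiers (UMIs, each standing for 1 captured transcript). Cluster 4 held 1232 cells, of which 278 were from WT, 542 from rd10-vehicle and 412 from rd10-TMB, with a median of 5333, 4857 and 5549 UMIs per cell. Its cells were cone-like, since 10 of 10 cone markers, a list without the 3 genes described here, were at least 2-fold higher in it than in the other clusters in each library. Between 7 and 10 cell barcodes were shared by a pair of libraries, and 0 of them were in Cluster 4 in both. UMIs were summed over the cells of a cluster and library and scaled to CPM, the UMIs of a gene per 1000000 UMIs of those cells. All intervals are exact 95% intervals and cover counting error only, so that a difference beyond them holds for the libraries and not for the conditions.

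The 3 genes lie at separate places in the genome (GRCm38, the mm10 build). Opn1sw spans chr6:29376671-29380513 on the minus strand with 5 exons, Opn1mw spans chrX:74127466-74150756 on the plus strand with 7 exons and Arr3 spans chrX:100605480-100618493 on the plus strand with 17 exons. Both opsin genes overlap a gene annotated on the opposite strand. The reads were counted with Cell Ranger at its default settings, which assign a read to genes on its own strand. Since the levels of the 3 genes moved apart from one another in the cells described further on, the 250 bases before each transcription start are shown, from RefSeq (GRCm38.p6), 5′ to 3′ on the strand of the gene. The capitals mark every match on either strand to AGGTCA, a core site of nuclear receptors, or to TAATC, the start of the binding sequence of the photoreceptor factor Crx. The windows are chr6:29380514-29380763 for Opn1sw, chrX:74127216-74127465 for Opn1mw and chrX:100605247-100605496 for Arr3, whose promoter entry starts just inside the annotated gene.
Opn1sw: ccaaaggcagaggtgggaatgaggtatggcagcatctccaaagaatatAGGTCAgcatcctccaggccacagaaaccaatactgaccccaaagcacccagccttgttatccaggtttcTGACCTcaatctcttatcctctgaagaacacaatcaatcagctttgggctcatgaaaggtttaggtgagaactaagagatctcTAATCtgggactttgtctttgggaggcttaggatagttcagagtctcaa
Opn1mw: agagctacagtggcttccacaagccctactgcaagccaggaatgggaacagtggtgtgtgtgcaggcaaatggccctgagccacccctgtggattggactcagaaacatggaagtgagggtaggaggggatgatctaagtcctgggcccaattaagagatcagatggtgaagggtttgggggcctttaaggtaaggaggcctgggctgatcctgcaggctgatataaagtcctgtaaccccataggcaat
Arr3: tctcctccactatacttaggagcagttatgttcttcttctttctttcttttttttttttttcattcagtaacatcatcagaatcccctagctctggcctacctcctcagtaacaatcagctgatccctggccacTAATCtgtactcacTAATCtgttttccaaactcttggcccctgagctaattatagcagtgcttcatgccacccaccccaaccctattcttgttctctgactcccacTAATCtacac
AGGTCA, or TGACCT as it reads on the other strand, was found 2 times before Opn1sw, 202 and 132 bases from the start, and 0 times before Opn1mw and Arr3. Of the 32851 mouse promoters of the same length, 14.0% held it. TAATC, searched after the windows had been read, was found 1 time before Opn1sw, 49 bases from the start, and 0 times before Opn1mw. In the window of Arr3 it was found 3 times, at 116, 102 and 10 bases from the start of the promoter entry. The last of these lies inside the annotated gene. Of the promoters, 19.8% held TAATC. The longer TAATCC was in none of the 3 windows and in 6.25% of promoters. These are matches of letters and not binding sites.

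The 3 transcripts were concentrated in Cluster 4. The cluster had been formed by the authors from all genes, these included, so the contrast with other clusters is a description and was not tested. Opn1sw stood at 8253 CPM for WT (95% interval 8104 to 8403), 6541 CPM for rd10-vehicle (6442 to 6640) and 6455 CPM (6349 to 6563) for rd10-TMB. Opn1mw stood at 5199, 5017 and 4769 CPM in the same order, and Arr3 at 4757, 3714 and 5007 CPM. For Opn1sw the order was WT, then both rd10 libraries, whose intervals overlap. For Opn1mw (5082 to 5319, 4931 to 5105 and 4678 to 4862) the intervals of WT and rd10-vehicle overlap and rd10-TMB was lowest. For Arr3 (4644 to 4871, 3640 to 3789 and 4913 to 5102) the order was rd10-TMB, WT and rd10-vehicle, with no overlap. These are levels from tags at the transcript end, not divided by length, so levels of different genes are not ranked against each other.

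Of all UMIs of a gene in a library, Cluster 4 held 95.3% to 96.7% for Opn1sw, 92.6% to 96.8% for Opn1mw and 90.2% to 94.2% for Arr3. Over the cells of all other clusters together the levels were 22.8 to 23.8 CPM for Opn1sw, 14.0 to 30.1 CPM for Opn1mw and 23.9 to 38 CPM for Arr3. Among clusters with at least 50 cells in a library, the highest level of Opn1sw outside Cluster 4 was 65.1 CPM (49.1 to 84.5) and of Arr3 79.0 CPM (61.4 to 100.2), both in the rod-like Cluster 1 of rd10-vehicle. The highest level of Opn1mw was 108 CPM (83.5 to 136.4), in the OFF cone bipolar-like Cluster 8 of rd10-TMB. That level rested on 1 of 140 cells, which held 58 of the 68 UMIs, and the remaining 139 cells were at 16.2 CPM. The lowest levels were 5.68 CPM for Opn1sw, 6.36 CPM for Opn1mw and 7.15 CPM for Arr3. With each cell thinned to 1000 UMIs, 2.05% to 3.82% of the cells outside Cluster 4 had a UMI of a given gene, against 56.5% to 97.1% of the cells within it.

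Among the other clusters with at least 50 cells in every library, the rod-like Cluster 1 had the highest levels of Opn1sw and Arr3 and the endothelial-like Cluster 11 the lowest. Cells of Cluster 1 were shallow, with median totals of 1423, 1406 and 1536 UMIs for WT, rd10-vehicle and rd10-TMB. In Cluster 11 these were 7110, 9718 and 9116.5 UMIs. The share of cells with an Opn1sw UMI was 7.97%, 8.45% and 6.97% in Cluster 1 and 8.03%, 11.5% and 7% in Cluster 11. For Arr3 it was 8.05%, 10.4% and 9.52% against 8.03%, 9.62% and 8%. The part of depth in the order of these levels was not tested. Opn1sw stood at 57.3, 65.1 and 44.3 CPM in Cluster 1 of WT, rd10-vehicle and rd10-TMB, at 20.4, 32.9 and 21.9 CPM in the rod bipolar-like Cluster 2 and at 7.88, 11.1 and 7.15 CPM in Cluster 11. Arr3 stood at 64.0, 79.0 and 58.6 CPM in Cluster 1, at 19.9, 32.5 and 27.8 CPM in Cluster 2 and at 8.60, 8.87 and 7.15 CPM in Cluster 11. Within each of these clusters the intervals of neighbouring libraries overlap. In the Müller glia-like Cluster 0 WT lay below both rd10 libraries beyond counting error, with Opn1mw at 10.8, 33.4 and 33.8 CPM and Arr3 at 16.0, 28.6 and 39.6 CPM. The intervals overlap for Opn1sw, at 17.5, 20.9 and 22.2 CPM. In rd10-vehicle and rd10-TMB, 34 and 38 cells with 5 or more opsin UMIs held 374 of the 741 and 371 of the 567 Opn1mw UMIs. Over all cells of Cluster 0 both opsins together stood at 28.3, 54.3 and 56.0 CPM. Without such cells, 1 of them in WT, the opsins stood at 26.9, 32.7 and 23.6 CPM, with rd10-TMB below WT. Clusters 12 to 20 held under 50 cells in at least 1 library each, and their levels rest on 0 to 39 UMIs per gene and library.

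**Figure D1:**
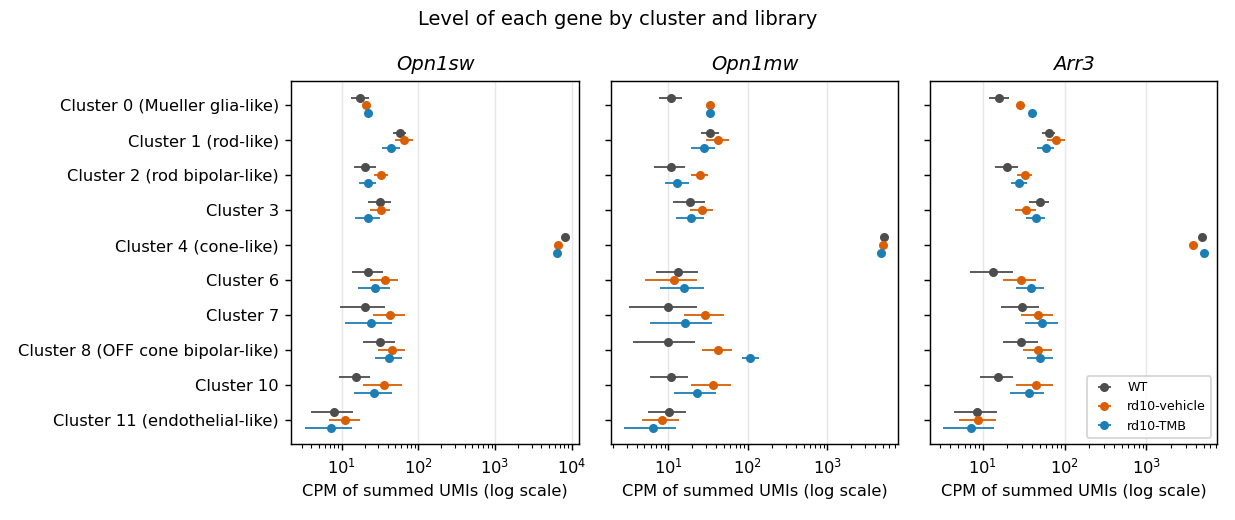
Level of each gene in CPM of summed UMIs (log scale) by cluster, with 1 point per library and bars for the exact 95% Poisson interval, for clusters with at least 50 cells in each library. The Cluster 4 points sit at 3714 to 8253 CPM, and the highest point elsewhere, 108 CPM for Opn1mw in Cluster 8 of rd10-TMB, rests mostly on 1 cell.

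The genes whose levels followed those of the 3 most closely were nearly the same for each. Over 35 profiles of a cluster in a library, with 9259 genes compared by Pearson correlation of log2(CPM + 1), the 5 genes nearest to each were the other 2 of the 3 together with Pde6h and Pde6c, which encode subunits of the cone phosphodiesterase, and Agr2, a protein disulfide isomerase of the endoplasmic reticulum. The correlations with Opn1sw were 0.98 for Pde6h, 0.98 for Arr3, 0.97 for Opn1mw, 0.95 for Pde6c and 0.91 for Agr2. The profiles of a library share its depth and its free RNA, and 3 of the 35 are Cluster 4. Without those 3, the correlation of Opn1sw with Pde6h was 0.81 and that with Agr2 was -0.13, so that the likeness to Agr2 rested on Cluster 4.

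Within Cluster 4, Opn1sw and Arr3 were lower in rd10-vehicle than in WT, and Opn1mw was nearly level. The comparison is between 1 library of rd10 mice on base chow and 1 of WT mice. The log2 ratio of rd10-vehicle over WT was -0.34 for Opn1sw (-0.37 to -0.30), or 79.3% of the WT level, and -0.36 for Arr3 (-0.40 to -0.31), or 78.1%. For Opn1mw it was -0.05 (-0.09 to -0.01). With a log2 ratio of 0.32 in either direction as the fold limit, 2 of the 3 genes were lower and 0 higher, where 9.99% of the 3223 genes with at least 200 UMIs over both libraries were lower and 7.54% higher. Among those genes 296 had a lower ratio than Opn1sw and 262 a lower ratio than Arr3, and the median of all was -0.03. Scaled by median-of-ratios size factors, 222 genes were lower and 326 higher in place of 322 and 243, and the ratios of Opn1sw and Arr3, at -0.28 and -0.30, fell short of the limit. In cells with at most 10% mitochondrial UMIs the ratio of Opn1sw was 0.04, with the opposite sign, and that of Arr3 was -0.31. Over 14 alternatives Opn1sw stayed past the limit in 5, with ratios from -0.65 to 0.04, and Arr3 in 9, with ratios from -0.74 to -0.05.

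Cells of WT mice differ in sex, and both Opn1mw and Arr3 lie on the X chromosome. The WT cones with Xist, the transcript of the inactive X chromosome, but without a Y-linked UMI numbered 126, and those with a Y-linked UMI and no Xist numbered 96. Opn1sw stood at 9330 CPM in the former and 7365 CPM in the latter, Opn1mw at 4770 and 5717 CPM, and Arr3 at 4157 and 5400 CPM. Against the WT cells with Xist alone, the log2 ratio of rd10-vehicle was -0.51 for Opn1sw, 0.07 for Opn1mw and -0.16 for Arr3, so that Arr3 no longer passed the limit and Opn1mw turned its direction. The 126 and 96 cells came from an unknown split of 4 mice in 1 library, and the difference between them was not tested.

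In rd10-TMB over WT the log2 ratio was -0.35 for Opn1sw (-0.39 to -0.32), -0.12 for Opn1mw (-0.17 to -0.08) and 0.07 for Arr3 (0.03 to 0.12). Of the 3 genes, 1, Opn1sw, was lower past the fold limit, where 10.8% of 2971 genes were lower and 8.21% higher. Size factors gave 218 genes lower and 351 higher in place of 322 and 244, and a ratio of -0.30 for Opn1sw, which no longer passed, and cells with at most 10% mitochondrial UMIs gave -0.04. Over 14 alternatives Opn1sw stayed past the limit in 4, with ratios from -0.53 to -0.0087. Both comparisons with WT use the same WT library.

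Of the 3 genes, Arr3 was the 1 that passed the fold limit between the rd10 libraries, at 5007 CPM in rd10-TMB and 3714 CPM in rd10-vehicle, a ratio of 135%. The comparison is between 1 library of rd10 mice on the drug mixture and 1 of rd10 mice on base chow. An effect of the drugs cannot be told apart from a difference between the pools. The log2 ratio was 0.43 (0.39 to 0.47), and 3630 of the 3673 genes compared had a lower one. For Opn1sw the ratio was -0.02 (-0.05 to 0.01) and for Opn1mw -0.07 (-0.11 to -0.04), a small difference beyond counting error. Higher past the limit was thus 1 of the 3 genes and lower 0, where 4.47% of genes were higher and 4.08% lower. The ratio of Arr3 lay between 0.26 and 0.55 under 13 alternatives and stayed past the limit in 12 of them, the exception being the intermediate range of opsin balance taken alone. No replicate library was there to set this ratio against.

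The cascade that the opsins drive gives the surroundings of these values. Of 18 genes of cone transduction, 17 had enough UMIs to compare with WT, and their median log2 ratio was -0.26 in either rd10 library, beside -0.03 and -0.00084 over all genes. Of the 17, 0 were higher past the fold limit and 7 lower in rd10-vehicle, and 0 higher and 4 lower in rd10-TMB, where 9.99% and 10.8% of all genes compared were lower. With size factors 4 were lower in each, and the medians were -0.20 and -0.21. The lowest was Guca1b, a guanylate cyclase activator also abundant in rods, at 132 CPM for WT, 35.1 CPM for rd10-vehicle and 32.2 CPM for rd10-TMB. Cluster 4 held 3.48% of its UMIs, and the 12 rod markers summed to 6170, 2278 and 3721 CPM over the other clusters, whose part in this value was not tested. Gnat2, the cone transducin alpha subunit, stood at 3094, 2647 and 2611 CPM, and Pde6h at 13965, 14479 and 14889 CPM. Between the rd10 libraries the median of 16 genes was 0.02, with 1 higher and 1 lower, near the 4.47% and 4.08% of all genes. The higher one was Cnga3, a subunit of the cone cyclic nucleotide-gated channel, at 97.1 CPM against 71.3 CPM (log2 ratio 0.44), and the lower one Gnb3, the cone transducin beta subunit, at 2666 CPM against 3478 CPM (-0.38).

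Rod arrestin was detected in the cones, and the opsins Opn3 and Opn4 were not. Sag, which encodes rod arrestin and is also made in cones, stood at 5072, 4649 and 4940 CPM for WT, rd10-vehicle and rd10-TMB. Opn3 and Opn4 had 0 UMIs in the cluster, where 3 UMIs would be 1.17 to 2.11 CPM in a library. Among 21 regulators of opsin choice and photoreceptor fate, 10 could be compared with WT, and 5 were lower in rd10-vehicle, 3 in rd10-TMB and 0 higher in either, beside the 9.99% and 10.8% of all genes. Their median log2 ratios were -0.27 and -0.20. With size factors 4 and 2 were lower. Crx, the homeobox factor of photoreceptors, stood at 642, 429 and 499 CPM and Thrb, the thyroid hormone receptor that is needed for Opn1mw, at 568, 447 and 406 CPM. Between the rd10 libraries 2 of 11 were higher in rd10-TMB, where 4.47% of all genes were, Rxrg at 0.44 and Prdm1 at 0.60 on the log2 scale, and 1 was lower, Samd7 at -0.39.

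Rod transcripts were present in the cones at a similar summed level in each library, 7564 CPM for WT, 8040 CPM for rd10-vehicle and 7962 CPM for rd10-TMB over 12 markers. Müller glia markers summed to 331 CPM for WT, 764 CPM for rd10-vehicle and 710 CPM for rd10-TMB, and 1 of these 10 markers was at 0 UMIs in rd10-vehicle. Over the other clusters the same markers summed to 8832, 31976 and 29474 CPM, also higher in the rd10 libraries. Whether the cones made these transcripts was not tested. Nor was the part of rod and glia transcripts in the ratios of the 3 genes.

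Cell by cell, most cones of every library held UMIs of both opsins. Both were found in 182 of 278 WT cells (65.5%, exact binomial interval 59.6% to 71.0%), 304 of 542 rd10-vehicle cells (56.1%, 51.8% to 60.3%) and 264 of 412 rd10-TMB cells (64.1%, 59.2% to 68.7%). Opn1mw without Opn1sw was found in 70, 199 and 108 cells, and Opn1sw without Opn1mw in 26, 36 and 38 cells. Cells with neither opsin numbered 0, 3 and 2. A count of 0 in a cell is a count of UMIs, and at full depth 5.52% to 11% of the cells outside Cluster 4 also held a UMI of a given opsin, and how many cells with both opsins hold 1 of them at that background was not tested. Arr3 was found in 277, 538 and 411 cells, or 99.3% to 99.8% of the cones.

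The spread over cells differed between the 3 genes. The median cell held 8955 CPM of Opn1sw for WT, 4895 CPM for rd10-vehicle and 6288 CPM for rd10-TMB, and the lower quartile was 33.7, 0 and 0 CPM, and 70 WT cones (25.2%), 202 rd10-vehicle cones (37.3%) and 110 rd10-TMB cones (26.7%) held none. Opn1mw had medians of 4679, 4582 and 4260 CPM with lower quartiles of 2144, 2104 and 2057 CPM. Arr3 was the most even, with medians of 4488, 3524 and 4911 CPM and quartiles of 3225 to 6184, 2598 to 4724 and 3456 to 6516 CPM. Over cells with at least 10 opsin UMIs, Spearman's rank correlation between Opn1sw and Opn1mw was -0.69 for WT (n = 266 cells), -0.64 for rd10-vehicle (n = 505) and -0.58 for rd10-TMB (n = 377). The same for Opn1mw and Arr3 was 0.48, 0.09 and 0.19. Cells of a library share mice and depth, and the values are scaled to the total of the same cell, so these are descriptions.

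The opsin balance, the share of Opn1sw in the opsin UMIs of a cell, was split into a group of cells with almost none and a broad group with much. The balance was read in the 266, 505 and 377 cells that held at least 10 opsin UMIs. The cells under that minimum, 12, 37 and 35, were shallow, with median totals of 1282, 1163 and 1114 UMIs. At most 5% Opn1sw was found in 77 WT cells, 199 rd10-vehicle cells and 125 rd10-TMB cells, or 28.9%, 39.4% and 33.2%. Between 5% and 40% there were few, 17, 26 and 30 cells, and above 40% there were 172, 280 and 222. At least 95% Opn1sw was found in 28, 58 and 41 cells. The median balance was 69.5% for WT (interval of the median 59.3% to 73.6%), 56.3% for rd10-vehicle (41.9% to 64.7%) and 63.6% (52.5% to 70.5%) for rd10-TMB, and these intervals overlap. Over all opsin UMIs of the cluster Opn1sw made up 61.3%, 56.6% and 57.5%.

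**Figure D2:**
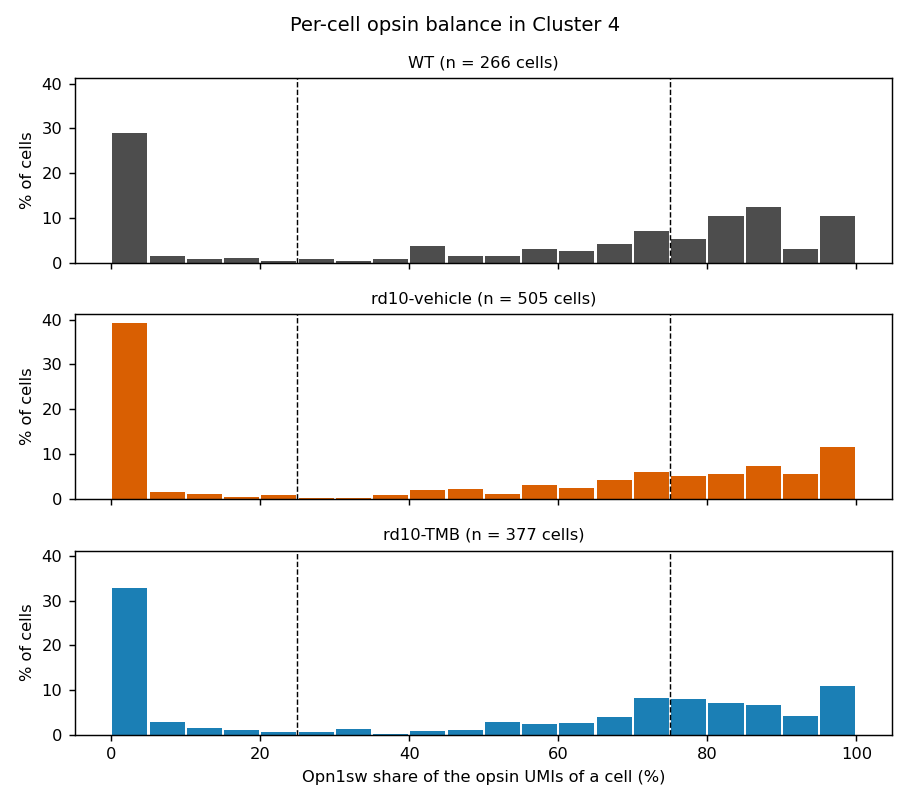
Per-cell Opn1sw share of opsin UMIs in Cluster 4 (x axis, in %, bins of 5 points) against the share of cells (y axis, in %), with 1 panel per library and dashed lines at 25% and 75%. Each library has a tall bar at the left end, few cells between 5% and 40% and a broad group above 40%.

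Cells with at most 25% Opn1sw were called Opn1mw-rich and those with at least 75% Opn1sw-rich. These are ranges and not cell types: 3, 5 and 5 cells lay within 5 points of the lower cut, but 35, 59 and 62 within 5 points of the upper one. Opn1mw-rich cells numbered 88 for WT (33.1%, 27.5% to 39.1%), 217 for rd10-vehicle (43.0%, 38.6% to 47.4%) and 147 (39.0%, 34.0% to 44.1%) for rd10-TMB. Opn1sw-rich cells numbered 111, 177 and 139, or 41.7%, 35.0% and 36.9%, and 67, 111 and 91 were intermediate. The WT and rd10-vehicle intervals of the Opn1mw-rich share overlap by a little. Among the WT Xist-positive cells without a Y-linked UMI, 35 were Opn1mw-rich and 60 Opn1sw-rich, and among those with a Y-linked UMI and no Xist 36 and 32. With each cell thinned to 1000 UMIs and the minimum of 10 opsin UMIs kept, the Opn1mw-rich share was 18.2%, 18.4% and 14.4%. Opn1mw-rich cells held 7042 to 8736 CPM of both opsins, under the minimum at that depth, whereas Opn1sw-rich cells held 15415 to 16385 CPM.

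Within the ranges where Opn1sw was abundant, it was close to WT in rd10-vehicle and a little lower in rd10-TMB. The ranges were cut on the opsin balance itself, so the opsin levels within them are a description and support nothing on the ratio over all cones. In Opn1sw-rich cells it stood at 14319 CPM for WT, 14387 CPM for rd10-vehicle and 13386 CPM for rd10-TMB, and in intermediate cells at 9530, 9306 and 8543 CPM. The log2 ratio of rd10-vehicle over WT was 0.0068 (-0.03 to 0.05) in the former and -0.03 (-0.10 to 0.03) in the latter, against -0.34 over all cones. Weighting the 3 ranges by their WT shares of cells, an alternative chosen after seeing the data, gave -0.0081. In rd10-TMB over WT the ratio was -0.10 (-0.14 to -0.05) in Opn1sw-rich and -0.16 (-0.22 to -0.09) in intermediate cells, and the same weighting gave -0.11. In Opn1mw-rich cells Opn1sw was at 161, 102 and 160 CPM, above the 18.8 to 22.7 CPM of the clusters other than photoreceptors, and 64 of 88, 172 of 217 and 95 of 147 of these cells held none.

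Opn1mw was lower in the Opn1mw-rich cells of both rd10 libraries. It stood there at 8575 CPM for WT (8315 to 8841), 7187 CPM for rd10-vehicle (7033 to 7344) and 6882 CPM (6710 to 7057) for rd10-TMB. The log2 ratios over WT were -0.25 (-0.31 to -0.20) and -0.32 (-0.37 to -0.26), of which neither passed the fold limit, and 271 of 1320 and 163 of 1089 genes had lower ones. In intermediate cells it stood at 5934, 5596 and 5298 CPM and in Opn1sw-rich cells at 2066, 1749 and 2029 CPM.

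For Arr3 the libraries parted in Opn1mw-rich cells. There it stood at 5801 CPM for WT (5587 to 6021), 3469 CPM for rd10-vehicle (3362 to 3578) and 5087 CPM (4939 to 5238) for rd10-TMB. In intermediate cells it stood at 4761, 4312 and 5175 CPM and in Opn1sw-rich cells at 3797, 3656 and 4844 CPM. The log2 ratio of rd10-vehicle over WT was -0.74 (-0.81 to -0.67) in Opn1mw-rich cells, where 15 of 1320 genes had a lower one, -0.14 in intermediate cells and -0.05 (-0.13 to 0.03) in Opn1sw-rich cells. In rd10-TMB over rd10-vehicle it was 0.55, 0.26 and 0.41, higher in every range. In rd10-TMB over WT it was -0.19, 0.12 and 0.35, so its direction differed by range. Against the WT Xist-positive cells without a Y-linked UMI, the ratio of rd10-vehicle in Opn1mw-rich cells was -0.68 (-0.78 to -0.59) from 35 WT cells, and its direction turned in the other ranges, at 0.18 (0.05 to 0.32) in intermediate and 0.13 (0.03 to 0.23) in Opn1sw-rich cells.

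**Figure D3:**
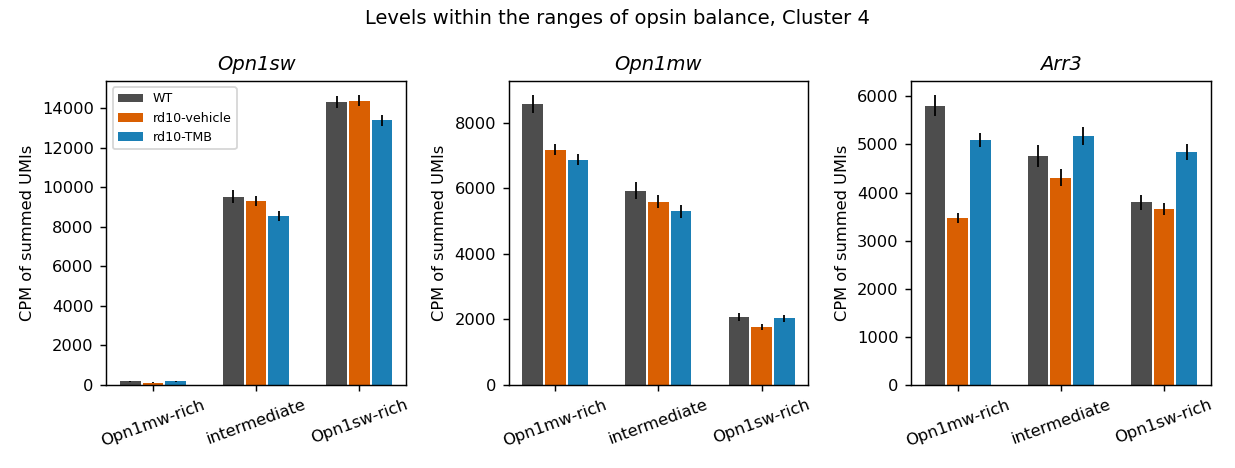
Level in CPM of summed UMIs of each gene in the Opn1mw-rich, intermediate and Opn1sw-rich cells of Cluster 4, with 1 bar per library and lines for the exact 95% Poisson interval. The opsin panels follow from how the ranges were cut, and Arr3 runs from 5801 to 3797 CPM across the WT ranges but from 3469 to 3656 CPM across those of rd10-vehicle.

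Set against each other within a library, Opn1mw-rich cells held more Arr3 than Opn1sw-rich cells in WT, with a log2 ratio of 0.61 (0.53 to 0.69). The ratio was near 0 in the other two libraries, at -0.08 (-0.15 to -0.0065) in rd10-vehicle and 0.07 (0.0057 to 0.14) in rd10-TMB. The WT ratio was 0.74 in the cells with Xist alone and 0.44 in those with a Y-linked UMI alone. Whether the ratio differs between the groups was not tested, since each is 1 library. A difference between the ratios of WT and rd10-vehicle as large as the 0.67 of Arr3, in either direction, was found in 24 of the 654 genes with at least 1000 UMIs, or 3.67%. For WT and rd10-TMB 35 of 654, or 5.35%, differed by the 0.53 of Arr3 or more. The 10 cone markers summed to 35396, 29825 and 30496 CPM in Opn1mw-rich cells and to 38395, 39197 and 40350 CPM in Opn1sw-rich cells of WT, rd10-vehicle and rd10-TMB. The mitochondrial share of UMIs was 8.71%, 10.9% and 11.1% in the former and 8.56%, 9.38% and 9.66% in the latter. The part of these differences in the levels of Arr3 was not tested.

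Since both ranges were present in each library, genes could be tested between them with the 3 libraries as replicates. Arr3 was not among the genes called: its log2 difference, Opn1mw-rich minus Opn1sw-rich on the log2(CPM + 5) scale, was 0.19 ± 0.09 (SE, 3 libraries), positive in 2 of 3, with an adjusted p of 0.358 by limma over 7405 genes. Without WT it was -0.03, and with ranges cut at 10% and 90% it was 0.53, with an adjusted p of 0.0824 by limma, the lowest of the alternatives. The opsins had formed the ranges and were not tested. Called were 110 genes higher in Opn1mw-rich cells, 1.49% of those tested, and 94 lower, 1.27%, and 204 of 204 had the same sign in the 3 libraries. Without WT 388 genes were called, 180 of these 204 among them, and without rd10-vehicle 99, of which 92 were among them. DESeq2 called 43 genes and edgeR 324.

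The 10 highest and 10 lowest differences among the called genes are named here. Nr2f2, a nuclear receptor of the COUP-TF family, stood at 56.4, 48.1 and 49.9 CPM in the Opn1mw-rich cells of WT, rd10-vehicle and rd10-TMB and at 1.72, 1.3 and 0 CPM in the Opn1sw-rich cells (log2 difference 3.25 ± 0.28 SE, limma adjusted p = 5.82e-08). Gm44532, a long noncoding RNA gene that lies 54180 bases from Nr2f2 on chromosome 7, stood at 130, 78.6 and 61.2 CPM against 0, 1.3 and 1.44 CPM (3.95 ± 0.28, limma adjusted p = 2.41e-09). Samd7, a polycomb-associated regulator of photoreceptors, stood at 184, 180 and 146 CPM against 41.3, 28.8 and 10.1 CPM (2.60 ± 0.19). The lowest CPM of each of these genes in Opn1mw-rich cells lay above its highest in Opn1sw-rich cells.

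Also among the 10 highest were Smug1, a uracil DNA glycosylase (2.59), A930001M01Rik, annotated antisense to another gene (2.38), Chrnb4 (1.90) and Chrna3 (1.83), subunits of a nicotinic acetylcholine receptor whose genes lie 1592 bases apart on chromosome 9, D430019H16Rik (1.86), Fgf2, a fibroblast growth factor (1.73), and Cap2, an actin-binding protein (1.54). Chrnb4 stood at 50.1, 83.0 and 60.1 CPM in Opn1mw-rich cells and 5.16, 25.1 and 14.4 CPM in Opn1sw-rich cells. Fgf2 stood at 12.5, 72.5 and 31.7 CPM against 5.16, 7.52 and 5.75 CPM, a wide spread over libraries in the former. Several of these genes overlap genes on the opposite strand, Fgf2 among them.

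On the side of the Opn1sw-rich cells, Ccdc136, a coiled-coil protein gene that lies 7841 bases from Opn1sw on chromosome 6, stood at 1370, 1369 and 1383 CPM, against 157, 56.8 and 246 CPM in the Opn1mw-rich cells (log2 difference -3.36 ± 0.20 SE, limma adjusted p = 1.68e-10). Of the 3 tested genes within 100 kb of Opn1sw it was the 1 called, and 0 of 1 near Opn1mw and 0 of 3 near Arr3 were, where 1.49% of all tested genes were higher and 1.27% lower. In intermediate cells it stood at 998, 1044 and 1059 CPM, nearer to the Opn1sw-rich end. En2, a homeobox gene, had 0 UMIs in the Opn1mw-rich cells of every library and 94 UMIs in the Opn1sw-rich cells, at 60.2, 42.6 and 36.0 CPM, which makes it at least 37.8-fold lower in the former, with 3 UMIs over the group as the floor. On this side the widest fitted difference on the log2(CPM + 5) scale was that of 5430419D17Rik, at -3.37. It stood at 4.18, 5.24 and 7.94 CPM against 112, 97.7 and 104 CPM. Ccdc136 at -3.36 and En2 at -3.35 were close to it, and their order depends on the 5 CPM added.

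The other genes of the lowest 10 were Syndig1l (-2.87), App, the amyloid precursor protein (-2.80), Cacna1h, a T-type calcium channel subunit (-2.44), A930009A15Rik (-2.35), Cabp5, a calcium-binding protein also used as a bipolar cell marker (-2.23), Ralyl (-2.03) and Nrxn3, a neurexin of synapses (-1.94). App stood at 10.4, 12.2 and 12.5 CPM in Opn1mw-rich cells and 89.4, 115 and 130 CPM in Opn1sw-rich cells. Cabp5 stood at 10.4, 5.24 and 18.1 CPM against 46.4, 97.7 and 64.7 CPM. The 8 markers of ON cone bipolar cells, to which Cabp5 and Nrxn3 belong, summed to 121, 163 and 97.5 CPM in Opn1mw-rich cells and 263, 356 and 230 CPM in Opn1sw-rich cells, and 2 of the 3 tested were lower. Without Cabp5 and Nrxn3 the other 6 summed to 100.3, 90.9 and 54.4 CPM against 89.4, 72.7 and 96.4 CPM, so the lower sum in Opn1mw-rich cells was that of these 2 genes in WT and rd10-vehicle. Rod markers summed to 7733, 7877 and 7645 CPM against 7810, 8297 and 8339 CPM, with 1 of 11 lower and 0 higher. Rod bipolar markers summed to 303, 317 and 317 CPM against 261, 238 and 243 CPM, with 1 of 5 tested higher, Car8, and without it to 242, 169 and 142 CPM against 241, 193 and 184 CPM. Their part in the differences was not tested.

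**Figure D4:**
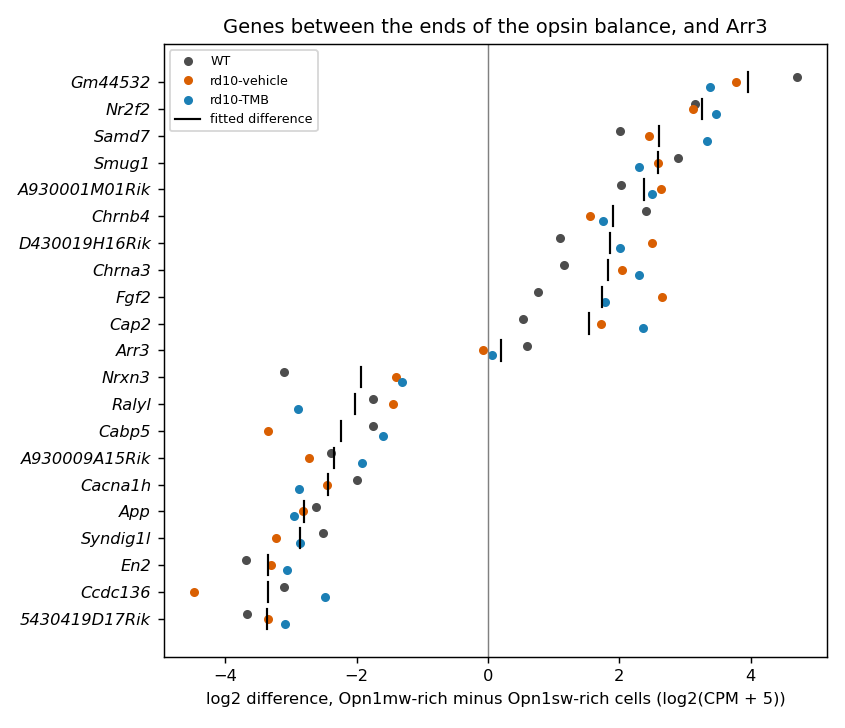
Log2 difference, Opn1mw-rich minus Opn1sw-rich cells on the log2(CPM + 5) scale, for the 10 highest and 10 lowest called genes and Arr3, with 1 point per library and a black bar for the fitted value. The named genes had to have the same sign in the 3 libraries, so their points lie on 1 side of 0 by the rule. Arr3 is shown for its values, above 0 in 2 libraries and below 0 in rd10-vehicle.

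Genes of the transduction cascade were lower at the Opn1mw-rich end where they differed. Of 17 tested, 6 were lower and 0 higher, where 1.27% of all tested genes were lower and 1.49% higher, with a median difference of -0.17 beside 0.0098 over all genes. Guca1b differed by -1.04, Guca1a, a guanylate cyclase activator of photoreceptors, by -0.75, Grk1, the kinase that phosphorylates opsins in mouse rods and cones, by -0.54, Rgs9bp by -0.47, Rcvrn by -0.37 and Gnb3 by -0.28, each past an adjusted p of 0.05 by limma. Guca1a stood at 5312, 3733 and 4451 CPM in Opn1mw-rich cells and 7288, 7451 and 7586 CPM in Opn1sw-rich cells, with no overlap. Sag, the second arrestin of the cones, was lower too, at -0.75 (limma adjusted p = 3.24e-06). Of 15 regulators tested 3 were higher, Thrb by 0.57, Samd7 and Nr2f2, beside 1.49% of all genes, and 0 lower, with a median of -0.11.

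Outside Cluster 4, the ratio of the 3 genes to each other was read to see whether the few UMIs there keep the ratio of the cones. In all clusters other than Clusters 0 and 4, Opn1sw made up 61.9% of opsin UMIs for WT (57.7% to 66.0%), 54.5% for rd10-vehicle (50.6% to 58.4%) and 53.5% (48.9% to 58.1%) for rd10-TMB, and these intervals hold the 61.3%, 56.6% and 57.5% of Cluster 4. In the Müller glia-like Cluster 0 it made up 61.7% for WT (51.1% to 71.5%) but 38.6% for rd10-vehicle (35.8% to 41.4%) and 39.7% (36.5% to 42.9%) for rd10-TMB. Arr3 did not keep the ratio: it made up 26.1%, 24.3% and 30.8% of the UMIs of the 3 genes in Cluster 4 and 39.9%, 38.1% and 43.7% in the clusters other than 0 and 4. The intervals of these shares do not overlap in any library.

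Cluster 0 of the rd10 libraries held a few cells with many opsin UMIs. Cells with 5 or more numbered 1 of 530 for WT, 34 of 2492 for rd10-vehicle and 38 of 1748 for rd10-TMB, and they held 41.5% and 59.5% of the opsin UMIs of Cluster 0 in the rd10 libraries. In them Opn1sw made up 25.3% (21.6% to 29.4%) and 33.6% (29.7% to 37.7%), whereas in the remaining cells it made up 47.9% (44.2% to 51.7%) and 48.6% (43.4% to 53.7%). Cone markers summed to 2919 and 3526 CPM in the cells with 5 or more, against 291 and 285 CPM in the remaining cells of Cluster 0. Their median totals were 11793 and 13890 UMIs, against 8570 and 9389 UMIs. Doublets had been removed before deposit, and whether any of these cells are doublets was not tested. In rd10-TMB, 3 cells of the clusters other than 0 and 4 held 65 of the 217 Opn1mw UMIs found there, with up to 75 opsin UMIs in a cell. The cell of Cluster 8 with 58 Opn1mw UMIs is 1 of these 3.

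**Figure D5:**
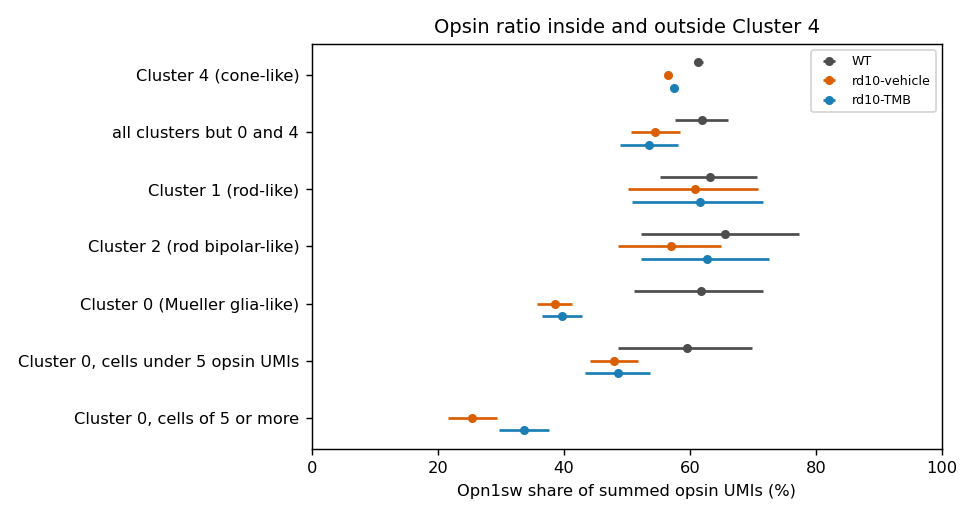
Opn1sw share of summed opsin UMIs (in %) in Cluster 4 and in groups of other cells, with 1 point per library and bars for the exact 95% binomial interval. Points of the rod-like and rod bipolar-like clusters lie at 57.0% to 65.6%, and those of Cluster 0 in the rd10 libraries lie at 38.6% and 39.7%.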

How the data were processed

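Retinal cells of 3 pooled libraries were sequenced with 10x v3 chemistry. The authors aligned reads to mm10 with Cell Ranger 6.0.1, combined matrices with Cumulus, removed doublets with Scrublet, kept cells with at least 500 genes in Seurat 3.2.2 and clustered after Harmony. In the deposited matrix the authors gave each value as the natural log of 1 plus the UMIs scaled to 10000 per cell. The deposited cell table gives the UMI count, library and cluster of each cell. UMI counts were recovered from all 32620606 entries, of which 100% were whole within 0.001 UMI, with the sum equal to the deposited total in 15242 of 15242 cells.

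UMIs were summed per cluster or range and library and scaled to CPM. Sums carry exact Poisson, shares Clopper-Pearson and ratios conditional binomial intervals (95%), and medians over cells order-statistic intervals. Between libraries a gene counted as higher or lower past a log2 ratio of 0.32 with at least 200 UMIs over both. The tests of the authors over single cells (MAST) were not used. Ranges were compared with limma 3.58.1 on log2(TMM CPM + 5) of 6 sums, with library as a block and at least 60 UMIs per gene, at a Benjamini-Hochberg adjusted p under 0.05, with edgeR 4.0.16 and DESeq2 1.42.0 as alternatives (R 4.3.3, Python 3.11.15). The script was tested on simulated data. The block is the library from which both ranges of a pair were taken. Since limma was the test for log values, it stayed the main one although whole UMI counts were recovered.

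Genes were named by rule: the 3 genes, each gene of the fixed lists with at least 200 UMIs in Cluster 4, the 5 genes most like each, and the 10 highest and 10 lowest called differences of equal sign in 3 libraries. Opn3 and Opn4 were named after their values were seen. A cluster was named from 3 or more markers at least 2-fold higher in it and at 20 CPM or more. The genes and lists were chosen with earlier results of these data known. Alternatives covered scaling, depth, cell filters, sex of the WT cells, free RNA and tools. Positions and promoters are those of RefSeq for GRCm38. 1 gene of the fixed lists is not reported here by name.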

Additional observations from a re-analysis of the deposited data

Results flagged for a closer look

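The log2 ratio of Arr3 between Opn1mw-rich and Opn1sw-rich cones was 0.61 for WT, while rd10-vehicle gave -0.076 and rd10-TMB gave 0.070. The WT and rd10-vehicle ratios have opposite directions, and the difference between the libraries was not tested. Cluster 0 lies outside the cone comparisons, and its cells with 5 or more opsin UMIs numbered 34 in rd10-vehicle and 38 in rd10-TMB, above the 1 of WT. Opn1sw made up 25.3% and 33.6% of the opsin UMIs in these cells.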

How the results depend on the processing

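No paired analysis between groups was possible because each group is 1 library. In the test between ranges both ranges of a library were paired, with the library as the block. Without that block 58 genes were called (25 higher, 33 lower) in place of 204 (110 and 94). Leaving out a library gave 99 to 388 calls (48 to 202 higher, 51 to 186 lower), edgeR 324 (174 and 150) and DESeq2 43 (21 and 22), and ranges cut at 10% and 90% gave 53 lower. With a library left out Arr3 ran from -0.026 without WT, its direction reversed, to 0.32 without rd10-vehicle. Ranges cut at 10% and 90% gave 0.53, and it was called under none of the settings. The 28 other named genes that were called kept the call in 302 of 329 alternatives, and the 22 that were not called gained one in 15 of 264.

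Of 123 alternatives for the ratios of the 3 genes, 2 reversed a called ratio and 53 moved it beyond its counting interval. The ratios below are log2 values in the order Opn1sw, Opn1mw, Arr3. For rd10-vehicle over WT, size factors gave -0.28, 0.0055 and -0.30, cells with at most 10% mitochondrial UMIs 0.037 (reversed), -0.30 and -0.31, WT cells with Xist alone -0.51, 0.073 and -0.16, Opn1mw-rich cells -0.65, -0.25 and -0.74, and Opn1sw-rich cells 0.0068 (reversed), -0.24 and -0.055. Intermediate cells gave -0.034 for Opn1sw and -0.14 for Arr3, the mean over cells -0.10 for Opn1mw, and the WT weights of the ranges -0.0081 and -0.20 for the opsins. For rd10-TMB over WT, size factors gave -0.30, -0.072 and 0.13, WT cells with Xist alone -0.53, -0.00034 and 0.27, Opn1mw-rich cells -0.0087, -0.32 and -0.19, and Opn1sw-rich cells -0.097, -0.026 and 0.35. Intermediate cells gave -0.16 for Opn1sw and 0.12 for Arr3. For the opsins alone, the mitochondrial limit gave -0.042 and -0.30, the mean over cells -0.29 and -0.19, and the WT weights -0.11 and -0.22. For Opn1sw, totals without mitochondrial and ribosomal genes gave -0.32, thinning -0.30 and dropping the 5% of deepest cells -0.30. For rd10-TMB over rd10-vehicle, Opn1sw was at 0.044 thinned, -0.079 under the mitochondrial limit, 0.017 without the 5% of cells, 0.65 in Opn1mw-rich, -0.12 in intermediate and -0.10 in Opn1sw-rich cells and -0.11 with the WT weights. Opn1mw was at -0.00078 under the mitochondrial limit, 0.21 in Opn1sw-rich cells and -0.019 with the WT weights, and Arr3 at 0.55 in Opn1mw-rich and 0.26 in intermediate cells. The WT weights, and leaving out cells under 10 opsin UMIs, were chosen after seeing the data. Apart from the ranges, which differ by construction, the cause was not tested.

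Thinned to 1000 UMIs, the median balance was 78.8%, 79.1% and 76.5% in WT, rd10-vehicle and rd10-TMB, with 18.2%, 18.4% and 14.4% Opn1mw-rich and 58.3%, 56.0% and 53.0% Opn1sw-rich cells and 32.6% intermediate cells in rd10-TMB. WT cells with Xist alone had a median of 75% and 50.4% Opn1sw-rich cells. Cut at 10% and 90%, intermediate cells made up 56.0%, 42.2% and 48.8% and Opn1sw-rich cells 13.5%, 17.0% and 15.1%. Unthinned, cells outside Cluster 4 with a UMI made up 8.60%, 11% and 8.68% for Opn1sw, 5.52%, 9.93% and 7.5% for Opn1mw and 8.26%, 13.1% and 13.7% for Arr3.

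Genes past the fold, higher and lower, in rd10-vehicle over WT, rd10-TMB over WT and rd10-TMB over rd10-vehicle, numbered 62 and 52, 44 and 56, and 7 and 24 at 1.5-fold. With at least 50 UMIs they numbered 944 and 1305, 911 and 1258, and 774 and 897, and with at least 1000 UMIs 43 and 49, 34 and 42, and 17 and 18. Depth limits the opsin balance of single cells, since the median cone held 48 to 67 opsin UMIs.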
